A study of Mus musculus with 80 samples.

Results

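Adh1, Fmo2, Slc4a8, Ahnak, Cys1, Lonrf1, Miga2, Fam107a, Fzd4 and Sh3kbp1 are 10 genes whose RNA level in the mouse left ventricle differed between males on a Western diet and males on the normal diet. They were selected on that measured difference, so it is given as a description with no test, and tests were kept to contrasts that use none of its 20 libraries. Other results of these data were also known when the genes were proposed. The 10 genes stand among 56941 in the count table, and all 10 were among the 15879 that passed a filter on low counts. RNA was sequenced in 80 libraries of left ventricular tissue from C57Bl/6J mice, in 8 groups of 10. Each sex had a sham group (normal diet, 0 cGy), a Western diet group (0 cGy), a mixed field group (normal diet, 50 cGy of a radiation field that the labels name only as Mix) and a gamma group (normal diet, 100 cGy). The dose unit is the centigray (cGy). No group combined the Western diet with irradiation, and the labels state neither the age of the mice nor the interval after exposure. Nothing in the labels says that the libraries came from separate animals, so p-values measure the spread between libraries, which may be technical.

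The 10 genes do not belong to 1 pathway. Adh1 encodes a class I alcohol dehydrogenase that oxidises ethanol and retinol, and Fmo2 a flavin-containing monooxygenase that oxidises drugs and other foreign compounds. Slc4a8 is a sodium-driven chloride/bicarbonate exchanger of the plasma membrane, which helps to set the pH inside the cell. Ahnak is a very large scaffold protein beneath the plasma membrane that binds annexin complexes and, in heart muscle, the beta subunit of the L-type calcium channel. Fzd4 is a receptor for WNT ligands and norrin with a known part in blood vessel growth, and Sh3kbp1 (CIN85) is an adaptor that joins CBL ubiquitin ligases to receptors on their way into endosomes. Cys1 (cystin) is a protein of the primary cilium whose loss causes cystic kidneys in mice, Lonrf1 carries RING finger and LON domains, Miga2 (mitoguardin 2) is an outer mitochondrial membrane protein that promotes fusion, and Fam107a is an actin-binding protein induced by stress and glucocorticoids.

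Total counts per library ran from 13484776 to 22143504. The 8 ventricular cardiomyocyte markers summed to between 42282 and 70399 CPM (counts scaled to the same library size in each sample) in every library, so the labelled muscle tissue was present throughout. Atrial muscle markers (6 genes) were spread widely in males, with sums from 12.1 to 2091 CPM, and stayed between 6.98 and 42.8 CPM in females. In each group 5 libraries have titles numbered 1 to 20 (replicates 1 to 5) and the other 5 have titles numbered 21 to 40. These 2 runs of numbers differ in many genes, and what separates them is not stated. Female gamma replicate 7 held 0.129 CPM of Xist, which goes against its label, and female mixed field replicate 10 correlated least with its group. The calls that use these 2 libraries are also given without them.

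Stretches upstream of 4 of the genes are shown because the levels described below move with clock genes, and because sites for clock and glucocorticoid-responsive factors can be looked for there. Each stretch lies directly before the start of the canonical transcript on GRCm39 (GENCODE vM39), read 5′ to 3′ on the gene's own strand. Capitals mark the letters of a motif on either strand. Adh1, Fam107a and Sh3kbp1 are the 3 genes with a match, and Lonrf1 is the gene whose level followed the clock gene Bmal1 most closely.
Adh1 (chr3:137983001-137983250, plus strand): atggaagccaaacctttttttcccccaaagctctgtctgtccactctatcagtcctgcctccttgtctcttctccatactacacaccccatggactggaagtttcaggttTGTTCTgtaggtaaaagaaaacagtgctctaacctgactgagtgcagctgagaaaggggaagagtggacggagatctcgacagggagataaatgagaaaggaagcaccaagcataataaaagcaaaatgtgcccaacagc
Fam107a (chr14:14159744-14159876, plus strand): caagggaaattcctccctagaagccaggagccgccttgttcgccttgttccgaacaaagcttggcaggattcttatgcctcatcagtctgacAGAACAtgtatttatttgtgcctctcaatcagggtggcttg
Lonrf1 (chr8:36716671-36716920, minus strand): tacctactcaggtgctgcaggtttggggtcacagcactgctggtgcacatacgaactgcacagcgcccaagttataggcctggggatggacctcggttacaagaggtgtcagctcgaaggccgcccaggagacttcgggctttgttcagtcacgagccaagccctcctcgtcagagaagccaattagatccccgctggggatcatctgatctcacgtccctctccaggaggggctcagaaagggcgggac
Sh3kbp1 (chrX:158409786-158410035, plus strand): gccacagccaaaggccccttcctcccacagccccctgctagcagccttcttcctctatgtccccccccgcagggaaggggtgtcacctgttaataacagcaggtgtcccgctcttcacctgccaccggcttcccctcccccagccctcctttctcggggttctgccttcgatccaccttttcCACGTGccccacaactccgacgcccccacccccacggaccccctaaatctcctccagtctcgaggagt
In the 250 bases before the start, 2 of the 10 genes held the glucocorticoid half-site AGAACA, as did 11.6% of the 13591 protein-coding promoters searched in the same way. The match of Adh1 began 140 bases before its start. Fam107a had 2 matches, beginning 158 and 110 bases before its start, and its stretch is shown only as far as the first exon of another Fam107a transcript, so the second match is not in it. The E-box CACGTG was in Sh3kbp1 alone among the 10 genes and in 7.67% of all promoters. The D-box TTANGTAA, the ROR element core TAGGTCA and the cyclic AMP element TGACGTCA were in none of the 10 and in 1.5%, 1.77% and 1.96% of all promoters. Of these motifs none contains another. A match describes letters in the window and was not tested as a binding site.

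Levels were divided by the merged exon length of all annotated transcripts, 58 for Miga2 and 2 for Fzd4. This is not the length of the expressed transcript, so the order between genes depends on the annotation. Per kilobase of such exon, Ahnak was the highest of the 10 over the 80 libraries, at 17.7 ± 4.4 CPM per kb (SD, n = 80). Sh3kbp1 followed at 11.05 CPM per kb, Fzd4 at 10.2, Fmo2 at 8.19 and Miga2 at 6.40. Lonrf1, Adh1 and Cys1 were close together at 2.96, 2.79 and 2.53 CPM per kb. Fam107a stood at 1.32 and Slc4a8 was the lowest at 0.249 CPM per kb, at percentile 13.1 of the genes tested. The spread between libraries of a group also differed among the genes. Fitted coefficients of variation ran from 10.4% for Sh3kbp1 and 11.5% for Miga2 to 40.1% for Fam107a, against a median of 18.2% over all genes tested. Reads of overlapping genes may have been shared, since the strand setting of the counting is not given in the sources used here. Adh1 overlaps the antisense RNA Gm16559, which had 122 counts over all 80 libraries. Exons of Lonrf1 and Miga2 overlap the antisense RNAs Gm64797 and Gm75227. Neither of these is in the count table, so reads from them cannot be bounded.

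**Figure D1:**
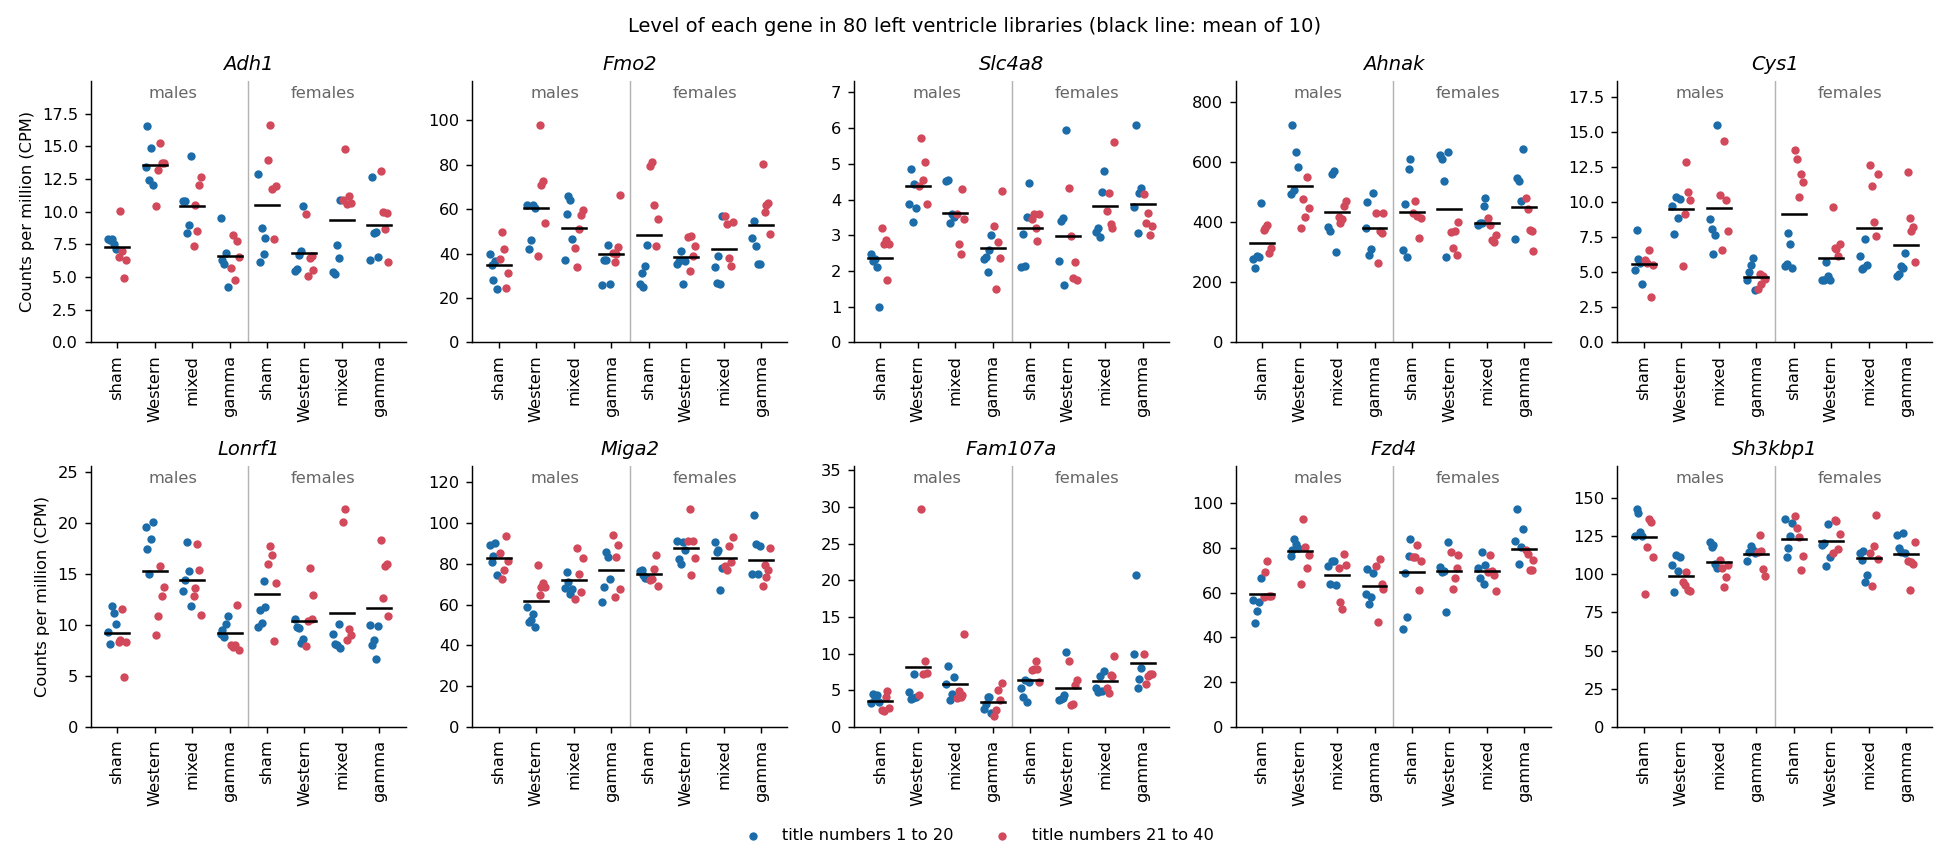
CPM (vertical axis, from 0) of each of the 10 genes in the 8 groups of 10 libraries, 1 point per library, blue for title numbers 1 to 20 and red for 21 to 40, with a black line at the mean of each group. In males the Western points of Adh1 and Slc4a8 lie above every sham point, and 1 male Western library holds 29.7 CPM of Fam107a.

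In males the Western diet libraries were higher than sham for 8 of the 10 genes and lower for Miga2 and Sh3kbp1. In the fit across all genes, 63 of 15879 were called in this contrast (0.397%), and the 10 genes are among them by choice. In bulk tissue, fewer cells of a type and less RNA per cell cannot be told apart. Adh1 ranged from 4.94 through a median of 7.33 to 10.03 CPM in male sham and from 10.5 through 13.5 to 16.6 CPM in male Western libraries. The lowest Western library stood above the highest sham library, with a log2 fold change of 0.89 (SE 0.16). Slc4a8 also separated, from 0.995, 2.40 and 3.20 CPM (lowest, median, highest) in sham to 3.36, 4.40 and 5.72 CPM in Western libraries, a log2 fold change of 0.89 (SE 0.17). Fmo2 overlapped between the groups. Its lowest, median and highest values were 23.96, 35.7 and 49.6 CPM in sham and 38.97, 61.3 and 98.1 CPM in Western libraries, 7 of which exceeded every sham library (log2 0.80, SE 0.18). Ahnak went from 248, 306 and 464 CPM in sham to 380, 500 and 725 CPM in Western libraries (log2 0.66, SE 0.14), and again 7 Western libraries exceeded every sham library.

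Among the other genes that were higher, Cys1 differed by 0.77 on the log2 scale, Lonrf1 by 0.73 and Fzd4 by 0.40. For each of them 8 of 10 Western libraries stood above every sham library. Fam107a had the largest difference, 1.21 (SE 0.28), and also the widest spread. Its sham libraries ran from 2.21 to 4.87 CPM and its Western libraries from 3.74 through a median of 5.98 to 29.7 CPM. Without male Western replicate 7, which holds the 29.7 CPM, the difference of Fam107a was 0.72. Miga2 was lower on the Western diet by 0.42 on the log2 scale, with sham libraries at 72.4 to 93.4 CPM and Western libraries at 48.8 to 79.5 CPM. Sh3kbp1 differed by -0.34, from a median of 126 CPM in sham to 98.2 CPM in Western libraries. All 10 Western libraries lay under the sham median, yet 1 sham library at 87.0 CPM lay under them all. At the edge of this selection, the last 2 genes inside the threshold of 0.05 were Tspan18 (adjusted p 0.0496 by edgeR) and Il17rd (0.0499), and the first 2 outside were Prex2 and Per2 (both 0.0517).

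The size of the male difference depended on the title run for some of the genes. Adh1 was steady, at 0.87 within title numbers 1 to 20 and 0.93 within 21 to 40, and Slc4a8 was at 0.997 and 0.82. Ahnak differed by 0.93 within the first run and by 0.37 within the second, and Miga2 by -0.64 and -0.22. Fam107a went the other way, with 0.31 and 1.85, and the second value was 1.12 without male Western replicate 7. The fits of Fam107a without this library in a title run, with clock terms or between the sexes were added after the data were seen. Rn18s-rs5, a ribosomal RNA gene whose share of the counts reports on rRNA carry-over, held between 0.178 and 0.419% of counts in male Western libraries of the first run and between 0.293 and 1.955% in male sham libraries of that run. Its part in the result was not tested. Atrial markers had a median summed level of 257 CPM in male sham and 74.9 CPM in male Western libraries, with a list median of -0.57 and 1 of 6 called lower, the atrial growth factor gene Bmp10 at -4.62. Libraries over 10 CPM of Myl7, an atrial myosin light chain, include all those of the first run in both groups. Without them the differences were 0.90 for Adh1, 0.88 for Slc4a8, 0.85 for Fmo2, 0.87 for Cys1, 0.57 for Lonrf1 and 0.39 for Ahnak. Fam107a was then at 1.74, Fzd4 at 0.24, Sh3kbp1 at -0.42 and Miga2 at -0.21.

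Both irradiated male groups share the male sham libraries with the contrast that chose the genes, so their values against sham are given without a test. The mixed field group differed from sham by 0.52 on the log2 scale for Adh1, 0.57 for Fmo2, 0.61 for Slc4a8, 0.39 for Ahnak, 0.78 for Cys1 and 0.64 for Lonrf1. Fam107a differed by 0.75, Fzd4 by 0.19, Miga2 by -0.20 and Sh3kbp1 by -0.21. The gamma group stayed nearer to sham, with values between -0.26 for Cys1 and 0.20 for Ahnak. In the order of Adh1 group means the male Western group came first at 13.6 ± 1.73 CPM (SD, n = 10), followed by female sham at 10.5, male mixed field at 10.4, female mixed field at 9.34 and female gamma at 9.01 CPM. Male sham at 7.31, female Western at 6.87 and male gamma at 6.59 CPM closed the order. Neighbours in this order overlapped in their libraries.

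In females the Western diet was compared with sham in libraries that had no part in the choice. None of the 10 genes passed the threshold by edgeR or DESeq2, 3 of them had an unadjusted p under 0.05, and of the 15879 genes tested 1174 did and 3 were called (0.0189%). The values of 7 of the 10 genes had the opposite sign to males. Adh1, whose male libraries separated upward, ran from 6.14 through 10.3 to 16.7 CPM in female sham and from 5.05 through 6.50 to 10.4 CPM in female Western libraries, and only 1 Western library stood above the sham median. Its log2 fold change was -0.60 (SE 0.16), with an adjusted p of 0.186 by edgeR's quasi-likelihood test and Benjamini-Hochberg adjustment. Cys1 differed by -0.61 (SE 0.18, adjusted p 0.378), from a median of 9.08 CPM in sham to 5.94 CPM in Western libraries. With the title run of each sex as a term, Cys1 passed the threshold, at -0.57 and an adjusted p of 0.0385, as 1 of 28 genes called. Miga2 differed by 0.23 (adjusted p 0.469), and all 10 Western libraries stood above the sham median of 73.9 CPM. Within title numbers 1 to 20 the value of Adh1 was -0.28, and within 21 to 40 it was -0.89.

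Of the other genes, Fmo2 and Lonrf1 each differed by -0.32 in females and Fam107a by -0.27. For Slc4a8 the fold change was -0.09 with a 95% interval from -0.43 to 0.24, and for Ahnak it was 0.04 with an interval from -0.24 to 0.31. Fzd4 and Sh3kbp1 were at 0.02 and -0.02. The male change minus the female change was 1.496 for Adh1, 1.37 for Cys1, 1.12 for Fmo2 and 1.05 for Lonrf1. It was 1.48 for Fam107a (0.99 without male Western replicate 7), 0.98 for Slc4a8, 0.62 for Ahnak, 0.39 for Fzd4, -0.32 for Sh3kbp1 and -0.65 for Miga2. The male part of these differences chose the genes, so they carry no test.

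**Figure D2:**
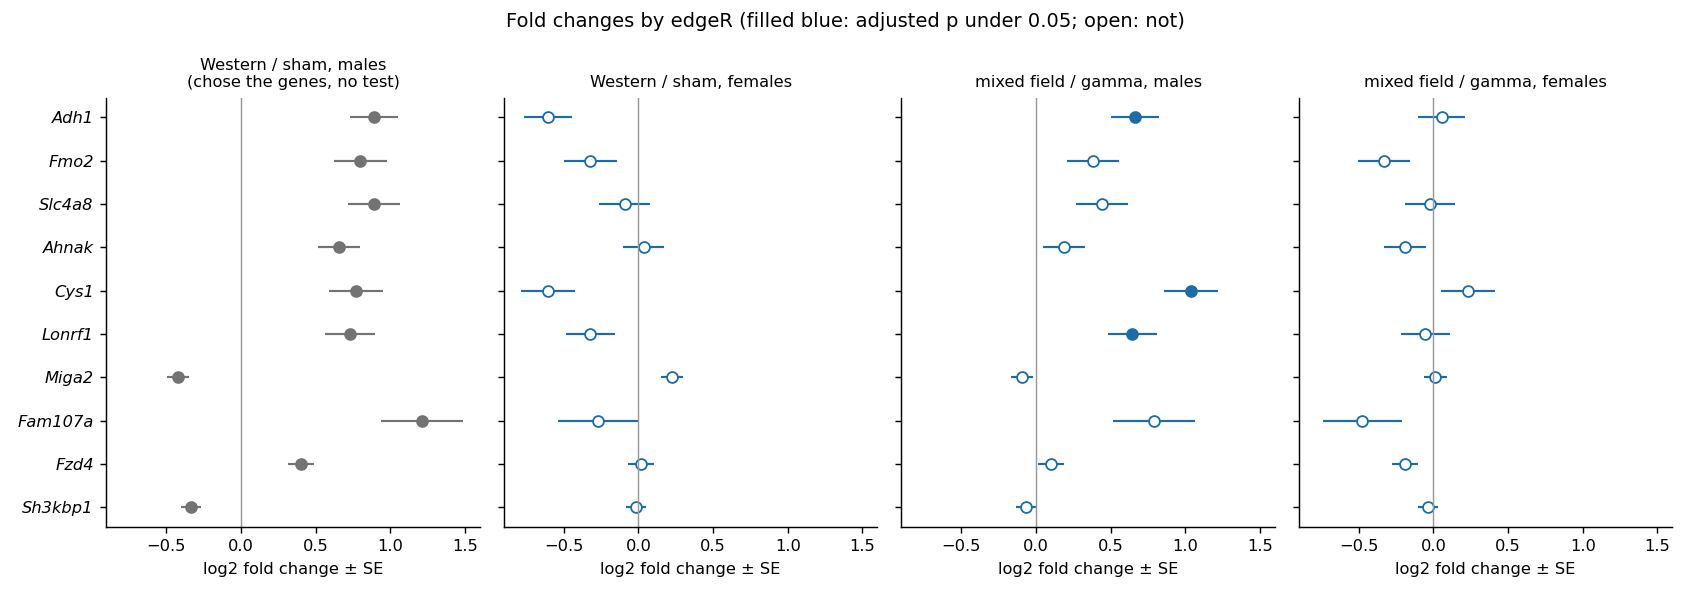
Log2 fold change (horizontal axis) with its SE for the 10 genes in 4 contrasts, where grey marks the contrast that chose the genes, filled blue an adjusted p under 0.05 and open circles the others. Adh1, Cys1 and Lonrf1 are filled for mixed field against gamma in males, and no gene is filled in either female panel.

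The mixed field and gamma groups of males also had no part in the choice. Between them 3 of the 10 genes passed the threshold, Adh1, Cys1 and Lonrf1, all higher in the mixed field, and 91 of all genes tested did (0.573%). Cys1 ran from 6.32 through 8.43 to 15.6 CPM in the mixed field and from 3.73 through 4.603 to 6.00 CPM in gamma libraries, so the groups did not overlap. Its log2 fold change was 1.04 (SE 0.18, adjusted p 0.000364 by edgeR). Adh1 ran from 7.35 through 10.7 to 14.3 CPM against 4.24, 6.44 and 9.51 CPM, and 6 mixed field libraries stood above every gamma library (log2 0.66, SE 0.16, adjusted p 0.0257 by edgeR). Lonrf1 ran from 11.01 through 14.02 to 18.1 CPM against 7.51, 8.99 and 11.97 CPM, and 8 mixed field libraries stood above every gamma library (log2 0.65, SE 0.17, adjusted p 0.0418 by edgeR). All 10 genes had the sign of the male diet difference here, with a median of 0.41 against 0.01 over all genes tested. Fam107a differed by 0.79 (adjusted p 0.227), Slc4a8 by 0.44 (0.325), Fmo2 by 0.38 (0.503) and Ahnak by 0.19 (0.771). Dose and field type change together between these groups and cannot be told apart.

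These calls were sensitive to which libraries entered. Within title numbers 1 to 20 the values were 0.92 for Cys1, 0.70 for Adh1 and 0.59 for Lonrf1, and within 21 to 40 they were 1.17, 0.63 and 0.71. Adh1 lost its call when any 1 of 7 of the 20 libraries was left out, and Lonrf1 when any 1 of 13 was, while Cys1 kept it throughout. Atrial markers had a median summed level of 25 CPM in male mixed field and 164 CPM in male gamma libraries. Without the libraries over 10 CPM of Myl7 the 3 values were 1.11, 0.73 and 0.62. With fewer libraries none of the 3 passed the threshold, and 2 of all genes did. The cut removed 5 gamma and 2 mixed field libraries of title numbers 1 to 20, and 1 of each of 21 to 40. The groups left therefore also differ in title run. In females the mixed field and gamma groups gave no call among the 10 genes by edgeR or DESeq2, with 1 at an unadjusted p under 0.05, where over all genes 2225 were and 4 were called (0.0252%), with Cys1 at 0.23, Adh1 at 0.06 and Lonrf1 at -0.05. Without female gamma replicate 7 and female mixed field replicate 10 these were 0.20, 0.05 and -0.01. The male minus female difference of this change, a test added after the data were seen, called 30 genes (0.189%) and none of the 10, of which 6 had an unadjusted p under 0.05, as did 1990 of all genes. Its largest values were 1.27 for Fam107a (adjusted p 0.111) and 0.81 for Cys1 (adjusted p 0.130). Neither the mixed field nor gamma radiation called any of the 10 genes against sham in females, where 1 and 2 of them had an unadjusted p under 0.05, and the counts over all genes were 0 in both contrasts (0%), with 1027 and 1643 genes at an unadjusted p under 0.05. DESeq2 called 0 and 3 genes in these contrasts.

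Males and females were compared over the irradiated groups, mixed field and gamma together. Of all genes, 1441 were called (9.07%), among them Fam107a and Fzd4 of the 10 genes, both lower in males. Fam107a ran from 3.67 through 4.71 to 12.6 CPM in male mixed field and from 1.52 through 3.39 to 5.96 CPM in male gamma libraries. The female values were 4.58, 6.11 and 9.63 CPM and 5.23, 7.25 and 20.7 CPM. The log2 difference, male minus female, was -0.72 (SE 0.19, adjusted p 0.0101 by edgeR). Fzd4 had medians of 71.4 and 62.8 CPM in the male groups and of 69.4 and 78.2 CPM in the female ones, with a difference of -0.19 (SE 0.06, adjusted p 0.0402). Its call was lost when any 1 of 18 of the 40 libraries was left out. Without the 2 libraries that stand apart, the values were -0.70 for Fam107a and -0.20 for Fzd4 and both remained called. Fam107a is on a list of 19 measured glucocorticoid-induced genes, of which 8 were lower in these males, 0 were higher and the median was -0.44 against 0.00 over all genes. Ddit4, a stress-induced inhibitor of mTORC1, was at -0.96 and Tsc22d3, a glucocorticoid-induced leucine zipper protein, at -0.50, while Fkbp5, a chaperone of the glucocorticoid receptor, was at -0.47. Map3k6 at -0.89, Zbtb16 at -0.88 and Klf15 at -0.28 were also called lower, each with a smaller p than Fkbp5. Against the 9.07% of all genes, 5 of 6 atrial markers were higher in these males (median 3.79), as were 2 of 3 epicardial (2.79), 3 of 4 adipocyte (1.71), 3 of 7 smooth muscle (0.21) and 1 of 4 Schwann cell markers. Of 8 cardiomyocyte markers 2 were higher and 1 lower, of 9 fibroblast and 6 erythroid markers 1 each was lower, and no endothelial or macrophage marker was called. Their part in the result was not tested. The sex difference also depended on the title run. Within title numbers 1 to 20, 2816 of all genes were called, among them Lonrf1, Miga2 and Fam107a of the 10. Within 21 to 40, 1106 were, with Cys1 alone of the 10, so Fzd4 was called in neither run. Lonrf1 was at 0.47 in the first run (adjusted p 0.000396 by edgeR) and at -0.36 in the second. Cys1 reached -0.51 in the second run (adjusted p 0.0224 by edgeR).

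The 2 title runs were compared within females, as the mean over the 4 groups, with 20 libraries each. Over all genes 3807 were called (24%), and of the 10 genes 5 were. Cys1, Fmo2, Lonrf1 and Adh1 were higher in title numbers 21 to 40 and Ahnak was lower. Cys1 ran from 4.44 through 5.39 to 7.79 CPM in the first run and from 5.71 through 9.30 to 13.8 CPM in the second, and was higher in the second run in all 4 groups (log2 0.76, SE 0.10, adjusted p 5.8e-09 by edgeR). Fmo2 differed by 0.54 (adjusted p 5.1e-05), from a median of 35.4 to 53.8 CPM. Lonrf1 differed by 0.52 (adjusted p 3e-05), from 9.77 to 13.5 CPM, and Adh1 by 0.34 (adjusted p 0.0109), from 6.90 to 10.3 CPM. Ahnak differed by -0.32 (adjusted p 0.00472), from 476 to 372 CPM, with the lower value in the second run in all 4 groups. Without female gamma replicate 7 and female mixed field replicate 10 the same 5 genes were called, among 3296 over all. In the irradiated males the same comparison called 1997 of all genes (12.6%) and none of the 10 (0 at an unadjusted p under 0.05, where 4183 of all genes were, and 0 by DESeq2), whose values lay between -0.10 for Lonrf1 and 0.15 for Fam107a. Whether the run difference itself differed between the sexes was not tested. The Rn18s-rs5 share differed between the runs in both sexes. In females it lay between 0.102 and 5.03% of the counts in the first run and between 0.4003 and 0.776% in the second. In male mixed field libraries it lay between 0.163 and 1.63% in the first run and between 1.37 and 2.73% in the second. The male gamma ranges were 0.161 to 2.26% and 1.09 to 3.29%. Its part was not tested.

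**Figure D3:**
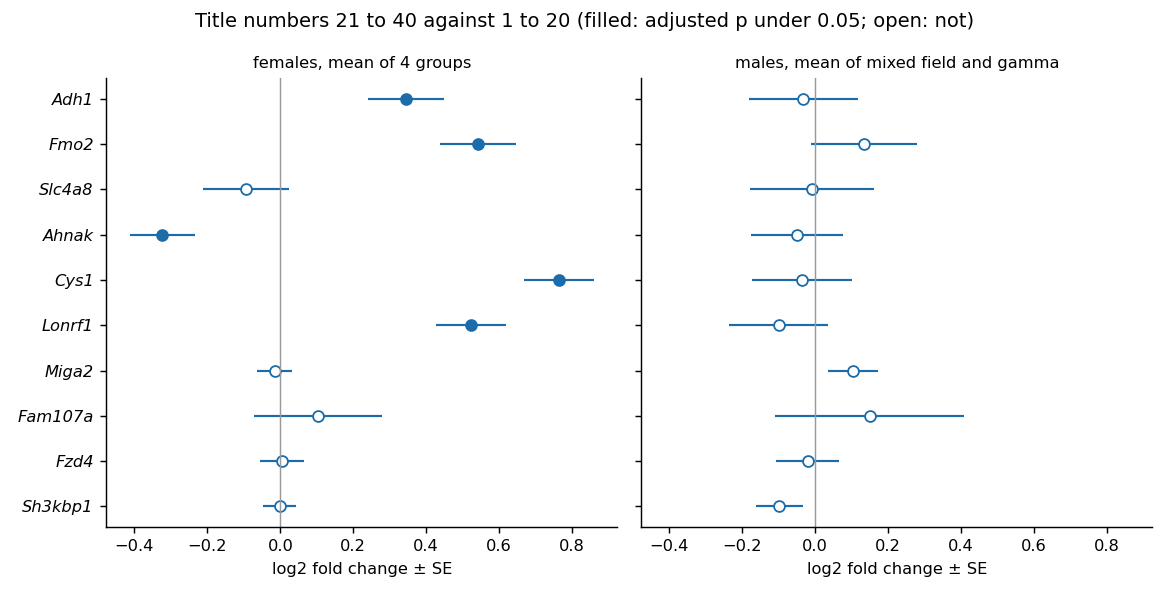
Log2 difference between title numbers 21 to 40 and 1 to 20 (horizontal axis) with its SE, on the left as the mean over 4 female groups and on the right over the male mixed field and gamma groups, with filled circles for an adjusted p under 0.05. Cys1, Fmo2, Lonrf1, Adh1 and Ahnak are filled in females, and no gene is filled in males.

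Several of the 10 genes moved with genes of the circadian clock, the loop in which BMAL1 and CLOCK drive Per, Cry, Nr1d1, Dbp and Tef, whose products feed back on it. Bmal1 had a median of 2.10 CPM in male Western and 2.04 CPM in male mixed field libraries, against 6.96 CPM in male sham and 10.6 CPM in male gamma. In females its median was 2.60 CPM in sham, 12.2 CPM in Western, 7.06 CPM in mixed field and 9.72 CPM in gamma libraries. The male groups with low Bmal1 were thus the 2 with high Adh1, Cys1 and Lonrf1, and among females the sham group was both. Of 19 measured clock genes, the male diet contrast called Tef (0.58) as higher and Nr1d1 (-0.58) as lower, and the female one called Bmal1 alone (1.66, adjusted p 0.0199 by edgeR). Between mixed field and gamma males, Tef (0.75), Per2 (1.34), Per3 (0.85) and Cry2 (0.48) were higher and Bmal1 was lower, at -1.93. Between the female title runs 9 clock genes were higher in the second run and 3 lower, with Dbp at 0.83 and Bmal1 at -1.12. No hour of tissue collection is stated in the labels used here.

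As a description, the Pearson r between log2 levels of Lonrf1 and Bmal1 was -0.79 over the 80 libraries and -0.92 over the 16 means of group and title run. It was -0.55 over the 80 libraries after these means were subtracted. The 3 values were -0.76, -0.89 and -0.37 for Cys1 and -0.65, -0.86 and -0.20 for Adh1. Miga2 went the other way, at 0.56, 0.69 and 0.27, and Fzd4 showed little relation to Bmal1, at -0.11, -0.22 and 0.04. Fzd4 instead followed Nr1d1 inversely, at -0.66, -0.84 and -0.50, as did Ahnak at -0.56, -0.66 and -0.48. The points share scaling, group and title run. The first 2 principal components of the 19 clock genes over the 80 libraries held 47.2% and 14.9% of their variance. Group and run means were not subtracted first, so these components also carry clock differences between the groups. With these components as terms, the male diet difference of Lonrf1 went from 0.73 to 0.07, that of Fmo2 from 0.80 to 0.32, that of Cys1 from 0.77 to 0.36 and that of Adh1 from 0.89 to 0.52. Slc4a8 was then at 0.75, Sh3kbp1 at -0.33 and Fam107a at 1.33, or 0.62 without male Western replicate 7. The values of Ahnak, Fzd4 and Miga2 with these terms are not given here. Within groups and title runs, Ahnak and Fzd4 had an r of -0.59 and -0.54 with the second component. Miga2 had an r of 0.33 with the first. With the same terms none of the 10 genes passed the threshold between mixed field and gamma males. Over all genes tested 11 did, against 91 without the terms. Lonrf1 turned to -0.12 (adjusted p 0.726 by edgeR).

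**Figure D4:**
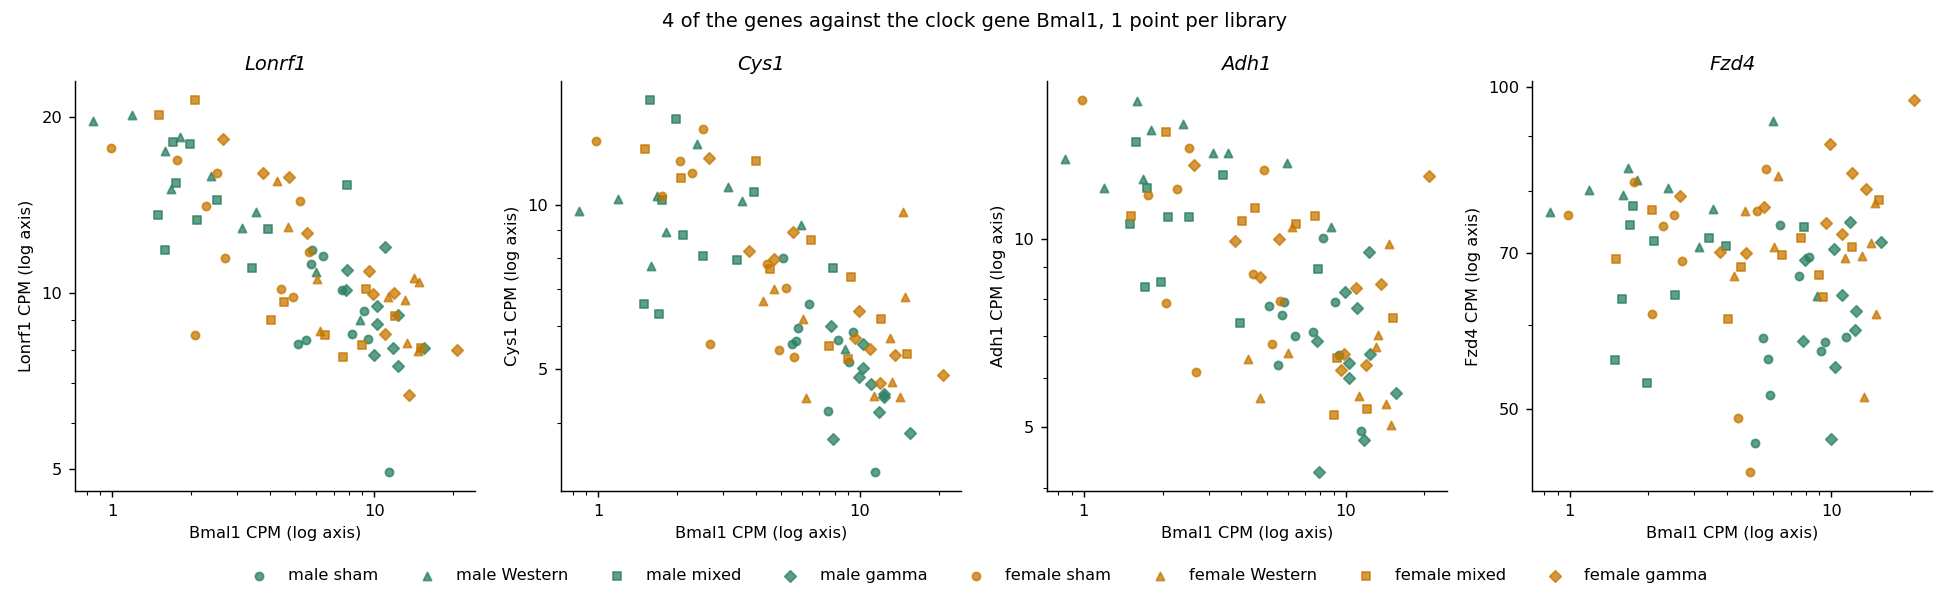
CPM of Lonrf1, Cys1, Adh1 and Fzd4 (vertical log axes) against CPM of Bmal1 (horizontal log axis), 1 point per library, green for males and orange for females, with the marker shape giving the group. Lonrf1, Cys1 and Adh1 are lower where Bmal1 is higher (r over 80 libraries -0.79, -0.76 and -0.65), while Fzd4 does not follow it (r -0.11).

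Relatives and partners of the 10 genes were counted in the contrasts that took no part in the choice. Most of these lists also hold genes of the 10 themselves. In females on the Western diet no gene was called among 21 measured genes of alcohol and retinoid metabolism, 4 flavin monooxygenases, 7 bicarbonate transporters of the SLC4 family, 9 Ahnak partners, 24 Frizzled and WNT genes, 13 mitochondrial fusion and fission genes, 12 CIN85 and CBL genes, 19 cilium genes or 24 fatty acid genes. List medians lay between -0.09 and 0.12 there, against 0.00 over all genes tested. Between mixed field and gamma males, 1 of 21 alcohol and retinoid, 1 of 19 cilium and 1 of 5 LON domain genes were called. These were Adh1, Cys1 and Lonrf1 themselves, already called above, so no relative on these 3 lists was called. Of all genes, 0.573% were called. Tcf7, a transcription factor of WNT signalling named here after its value was seen, was the 1 lower call among the 24 Frizzled and WNT genes, at -2.37. The other lists just named had no call. Between the female title runs, where 24% of all genes were called, 2 of 4 flavin monooxygenases and 2 of 5 LON domain genes were higher and none lower. Among the alcohol and retinoid genes 3 were higher and 2 lower, among the cilium genes 2 and 2, among the Frizzled and WNT genes 1 and 2 and among the fusion and fission genes 1 and 3. Fmo2, Lonrf1, Adh1 and Cys1, called above, are themselves among the higher calls of these lists. Lower calls alone were found for 9 of 24 fatty acid genes, 3 of 12 CIN85 and CBL genes and 1 of 7 SLC4 genes. The same held for 3 of 9 genes on the list of Ahnak and its partners. In the male mixed field against gamma contrast no cell type marker was called. The 8 endothelial markers had a median of -0.15 (1 positive) and the 9 fibroblast markers -0.17 (0 positive). Medians were -0.86 for 4 adipocyte, -0.61 for 3 epicardial, -0.49 for 6 erythroid and -0.21 for 6 atrial markers. Smooth muscle markers were at -0.08, Schwann cell markers at -0.05, macrophage markers at 0.00 and cardiomyocyte markers at 0.04. Their part in the result was not tested.

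Within groups and title runs the 10 genes formed no single block. Over the 45 pairs the median Pearson r of log2(CPM + 0.5) was 0.05, and 27 pairs were positive. The highest r was 0.70, between Ahnak and Fzd4, followed by 0.46 between Slc4a8 and Fzd4 and 0.44 between Fmo2 and Slc4a8. The lowest was -0.32, between Lonrf1 and Miga2. These are descriptions over 80 libraries that share depth scaling. Among 12413 genes compared in the same way, the nearest to Adh1 were Pth1r (0.50), Cryzl1 (0.49) and H19 (0.48). Fmo2 was nearest to Adam22 (0.64), Xdh (0.62) and Vwf (0.62). Slc4a8 was nearest to Uvssa (0.65), Sf3b1 (0.64) and Fam117b (0.60). Ahnak had closer neighbours than the others, namely Nr2c2 (0.89), Nsd1 (0.88) and Utrn (0.87).

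**Figure D5:**
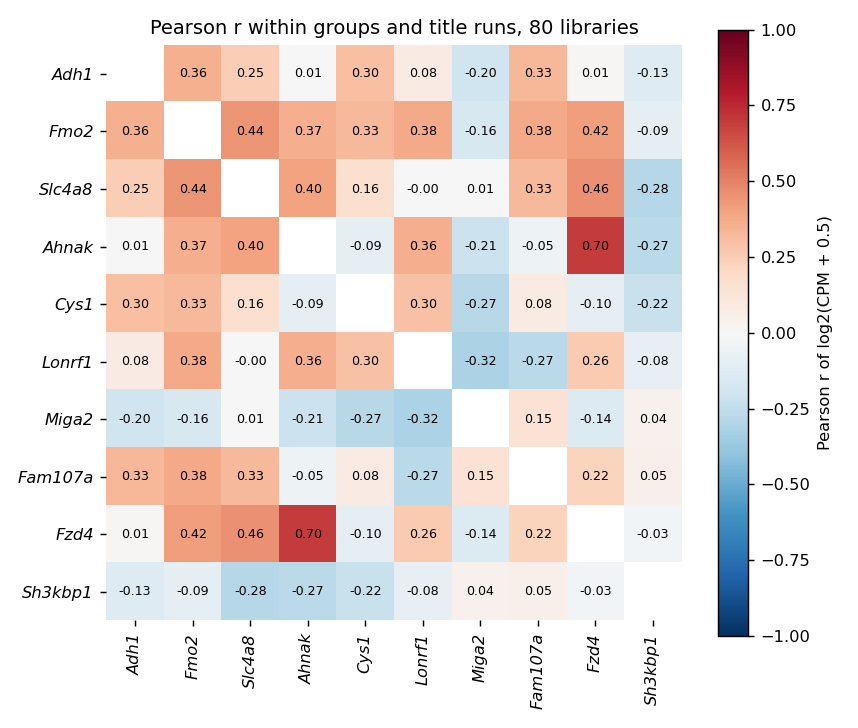
Pearson r of log2(CPM + 0.5) between each pair of the 10 genes (both axes) after the mean of each group and title run was subtracted, over 80 libraries, from blue (-1) to red (1). Ahnak with Fzd4 is the strongest pair, at 0.70, and Lonrf1 with Miga2 the lowest, at -0.32.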

How the data were processed

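Poly-A RNA of 80 left ventricle libraries was sequenced. The submitters' processing notes name FastQC 0.11.9, STAR 2.7.8a and the GRCm39 build. The counting tool and annotation are not given in the sources. The table deposited by the authors holds raw counts, whole numbers for 56941 Ensembl genes, of which 56323 matched GENCODE vM39 on GRCm39, the source of symbols, coordinates and sequences. The 10 genes and all gene lists were chosen with earlier results of these data known, and the genes named beside them follow a rule (the 3 of highest within-group correlation for Adh1, Fmo2, Slc4a8 and Ahnak).

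Counts were tested with edgeR 4.0.16 (R 4.3.3) by quasi-likelihood after filterByExpr and TMM scaling, with 1 coefficient per group, or per group and title run for comparisons of runs. P-values were adjusted by Benjamini-Hochberg over the 15879 genes and called under 0.05. Standard errors were derived from the F value of each test. The pipeline was tested on simulated data. Precision is limited by totals of 13484776 to 22143504 counts. Alternatives were DESeq2 1.42.0, other scaling and filter settings, leaving out libraries, title runs, 2 clock components and the replicate block. Motifs were searched as exact letters on both strands.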

Additional observations from a re-analysis of the deposited data

Results flagged for a closer look

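In each of the 80 sets of 10 libraries (10 genes in 8 groups), the highest and lowest value were compared with their neighbour. By Dixon's criterion 8 sets had a library far from the others. Chance alone meets it in about 1 of 20 groups when values are normally distributed. The CPM were not logged and each group holds both title runs, so that rate need not hold here. Fam107a had 3 of them: male Western replicate 7 at 29.7 CPM (next 8.97), female gamma replicate 2 at 20.7 CPM (next 9.94) and male mixed field replicate 10 at 12.6 CPM (next 8.32). Female gamma replicate 2 was also the highest for Slc4a8, at 6.10 CPM (next 4.32). Fmo2 stood at 66.5 CPM in male gamma replicate 10 (next 43.7). Cys1 stood at 9.70 CPM in female Western replicate 6 (next 7.01), and Miga2 at 107 CPM in female Western replicate 7 (next 91.4). Lonrf1 was low in male sham replicate 9, at 4.94 CPM (next 8.17).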

How the results depend on the processing

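The counts of called genes among the 10 kept within 1.5 times their value under DESeq2's size factors and DESeq2's own test, in all 8 comparisons tested. Over all genes, DESeq2 called 8, 3 and 15 for the female diet, gamma against sham and mixed field against gamma contrasts, where edgeR called 3, 0 and 4, and within title numbers 1 to 20 and 21 to 40 edgeR called 38 and 432 in the last of these. Without a filter on low counts, males against females over the irradiated groups gave 1 call in place of 2 (1306 over all genes, against 1441 in the main fit). With the title run as a term this count was 5, while the count over all genes rose to 4159. The Western diet in females then gave 1 call in place of 0 (28 over all genes). Within title numbers 21 to 40 the sex comparison gave 1 call, Cys1, which was not called in the main fit (1106 over all genes). Mixed field against gamma in males gave 1 there in place of 3 (21 over all genes). With 2 clock components as terms the mixed field against gamma count in males was 0 (11 over all genes). The female run count was 3 in place of 5 (4308 over all genes). Lonrf1 then reversed to -0.12 between mixed field and gamma males, and the cause was not tested. Without libraries over 10 CPM of Myl7, which leaves fewer samples, the mixed field against gamma count in males was 0 (2 over all genes). The count for the sex comparison was then 1 (903 over all genes). Leaving out each library in turn gave 1 to 3 calls for mixed field against gamma in males, 1 to 3 for the sex comparison, 5 for the female runs and 0 for the others.

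Same-numbered male and female libraries share diet, field, dose and title run. The correlation of their deviations from group means ran from -0.228 to 0.28 over 40 pairs, and 11 pairs were over 0.1. Title run was not removed from these deviations, so they do not decide whether such pairs share anything further. A fit with the title number as replicate block gave 2 calls in the sex comparison, the same 2 genes. At totals of 13484776 counts or more, depth limits Slc4a8 and Fam107a most.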
